A study of Mus musculus with 28 samples.

Results

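The libraries described here are the 8 unstressed controls of the chronic social stress (CSS) cohort, divided by the number that follows the letter C in their titles. Of the 28 libraries of the series, 4 controls carry the code C1 (C1A1, C1A2, C1A3 and C1A4), and the other 4 carry C2 or C3 (C2A2, C2A3, C2A4 and C3A4). The division was made on the titles alone and used no measured value. What the number after C stands for is not given in the labels, nor is the meaning of the number after A, and C3 is a single library. Housing, handling, dissection or anything else that mice of one code may have shared therefore cannot be told apart from the code itself.

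All 8 mice were unstressed C57Bl/6 males of 21 weeks, and the labels describe them as separate animals with 1 library each. The frontal cortex was dissected from 1 hemisphere that had been kept in RNAlater. The 8 stressed mice of the same table (CSS), used here for comparison, had the same strain, sex and age. They lived alone for 7 weeks and were put through social confrontations each day during the last 20 days. Their titles also carry codes, from C1 to C4, but they were taken as 1 group whatever the code. Whether a number means the same in stressed mice and controls is not given in the labels. No genotype, transgene or drug is given for any of these 16 mice, and the diabetes cohort of the series was not used.

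Frontal cortex is a layered mixture of glutamatergic projection neurons, GABAergic interneurons, glia and vessels. A dissected block can carry some of the striatum beneath it or the olfactory bulb in front of it. Its immediate early genes follow recent neuronal activity within minutes to hours, and other transcripts follow the time of day or the state of the tissue when it was taken. Controls of one strain can thus differ in RNA without any treatment, and a contrast between the controls shows how much of that is present. In bulk tissue, fewer cells of a type and less RNA per cell cannot be told apart.

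The libraries had the genes of cortex. Over the 8 controls, Slc17a7, the vesicular glutamate transporter of cortical projection neurons, lay between 372 and 713 CPM (counts scaled to a common library total). Tbr1, a transcription factor of deep-layer projection neurons, lay between 48.8 and 75.1 CPM. Drd1, the dopamine receptor of striatal and some deep cortical neurons, lay between 68.1 and 116 CPM. Every library therefore also held RNA of a gene that is strong in the striatum.

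The totals of listed counts were 14.3 to 37.5 M in C1 (C1A2 the deepest) and 15.5 to 20.8 M in C2/C3. The means were 21.3 ± 11 M (SD, n = 4) and 17.9 ± 2.48 M (SD, n = 4), which did not differ by a two-sided exact permutation test (p = 0.886). RNA integrity (RIN) was 9.3 to 9.6 in C1 and 9.3 to 10.0 in C2/C3, with an exact permutation p of 0.743. The share of counts from mitochondrial DNA was 7.69% ± 0.26 (SD, n = 4) in C1 and 7.54% ± 0.94 (SD, n = 4) in C2/C3 (exact permutation p = 0.800). The 10 largest genes of each library took 13.4% ± 0.44 of the counts in C1 and 12.2% ± 0.97 in C2/C3 (SD, n = 4 each, exact permutation p = 0.0857, adjusted 0.3 over the 7 library values compared). With 4 libraries against 4, the smallest p that this test can give is 0.0286, and none of the 7 values reached it.

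A principal component analysis of log2 CPM over the 8 controls placed the sets on opposite sides of the first component, which held 23.1% of the variance. The C1 libraries had scores of -24.4, -3.07, -14.8 and -15.8, and the C2/C3 libraries 11.5, 27.5, 10.8 and 8.29. C1A2, the deepest library, lay closest to the other set. The second component (16.7%) did not follow the code, since C1A2 (25.6) and C3A4 (19.5) were at one end and C1A4 (-17.1) at the other.

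**Figure D1:**
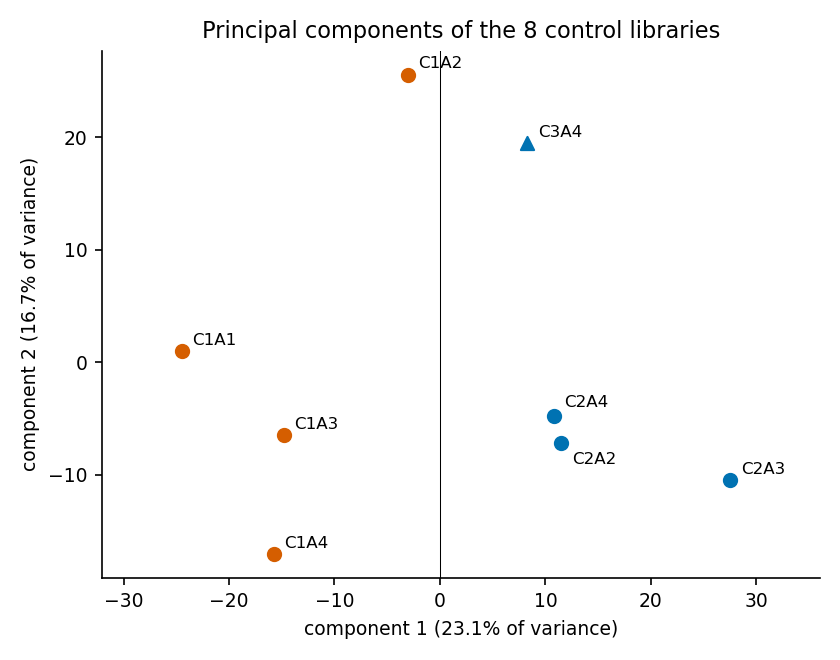
Scores of the 8 control libraries on the first (horizontal) and second (vertical) principal components of log2 CPM, with C1 in orange, C2 as blue circles and C3 as a blue triangle. All 4 C1 libraries lie below 0 on the first component (-24.4 to -3.07) and all 4 C2/C3 libraries above it (8.29 to 27.5).

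The first comparison asked which genes differ between unstressed mice of the C1 and the C2/C3 code. Of 15094 genes tested, 11 passed an adjusted p of 0.05 in edgeR's quasi-likelihood test (0.0729%). Of these, 10 were higher in C1 (0.0663%) and 1 was lower (0.00663%), with fold differences of 1.31 to 2.28. All changes below are on the log2 scale, C1 minus C2/C3. The standard error beside each was derived here as the size of the change over the square root of edgeR's F statistic. In each of the 11 genes the lowest library of the higher set lay above the highest of the lower set. Over all genes, 754 (5.0%) were higher in C1 and 832 (5.51%) lower with no such overlap, and the median change was 0.00.

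The adjusted p-values of the 11 genes lay between 0.0358 and 0.0486, close to the threshold, and the number of calls depended on single libraries. Without C1A1, C2A2 or C2A3 it was 0, without C1A3 or C1A4 it was 1, without C2A4 it was 3, and without C1A2 it was 8. Without C3A4, which leaves C1 against C2 alone, it was 19. No gene of the 11 kept its call in more than 2 of these 8 fits. DESeq2 called 697 genes (395 higher and 302 lower in C1), among them all 11, and limma's voom called 9, of which 8 were shared.

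Meis1, a homeobox transcription factor gene on chromosome 11 (GRCm38 positions 18879817 to 19018985), had the largest change of the 11. Its CPM was 10.9, 15.2, 13.7 and 19.9 in C1A1 to C1A4 and 5.75, 6.23, 6.90 and 7.35 in C2A2, C2A3, C2A4 and C3A4. Each C1 library was above all of the other set, with a change of 1.19 ± 0.17 (edgeR, adjusted p = 0.0486). The stressed mice had a median of 8.57 CPM (5.95 to 11.9), mostly between the sets. Of its exonic bases, 9.77% overlap Gm37818 on the same strand and 8.51% overlap Gm16140 on the other, so some of its counts may belong to those genes.

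Brd8 and Aff4 encode proteins of transcription. Brd8, a bromodomain subunit of the NuA4/TIP60 histone acetyltransferase complex (chromosome 18, 34598615 to 34624601), was at 121, 115, 91.1 and 113 CPM in C1 and at 74.6, 70.1, 71.2 and 76.3 in C2/C3. All 8 stressed libraries lay within 67.7 to 76.7 CPM, below every C1 library and around the C2/C3 values. The change between control sets was 0.60 ± 0.08 (edgeR, adjusted p = 0.0486). It was the 1 gene of the 11 also called when the 16 libraries were fitted together as 3 groups (edgeR, adjusted p = 0.00271). Aff4, a scaffold of the super elongation complex (chromosome 11, 53350833 to 53421830), had 449, 473, 426 and 470 CPM in C1 and 340, 284, 313 and 361 in C2/C3. Its change was 0.49 ± 0.07 (edgeR, adjusted p = 0.0486), and the stressed mice spanned 261 to 364 CPM, a range that covers the C2/C3 values.

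Rbm12 encodes a protein with RNA recognition motifs (chromosome 2, 156091958 to 156111978). It had 63.2, 56.3, 57.9 and 62.6 CPM in C1 and 47.1, 41.3, 42.7 and 40.3 in C2/C3. Its change was 0.48 ± 0.07 (edgeR, adjusted p = 0.0486), and 32.6% of its exonic bases are shared with Gm28036 on the same strand, so the split of reads between the pair is uncertain.

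Gga3 encodes an adaptor that sorts cargo from the Golgi to endosomes (chromosome 11, 115584255 to 115604051). It had 67.4, 77.6, 83.0 and 77.3 CPM in C1 and 45.0, 41.0, 57.5 and 46.1 in C2/C3, a change of 0.69 ± 0.10 (edgeR, adjusted p = 0.0486). C2A4 was the highest of its set and still below every C1 library.

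Rps20, a protein of the small ribosomal subunit (chromosome 4, 3831334 to 3835665), was the 1 gene called lower in C1. Its CPM was 47.3, 46.1, 51.1 and 54.7 in C1 and 75.1, 82.9, 75.7 and 65.8 in C2/C3, a change of -0.59 ± 0.08 (edgeR, adjusted p = 0.0486). The stressed mice spanned 66.0 to 94.1 CPM, so the C1 libraries were below all others. Genes for ribosomal proteins have many processed copies in the genome, and reads may be split among them.

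A further 4 calls were predicted gene models. The processed pseudogenes Gm49273 (chromosome 15, 103657839 to 103661681) and Gm47626 (chromosome 10, 51986342 to 51989579) had the smallest p-values, with changes of 0.65 ± 0.08 and 0.74 ± 0.09 (edgeR, adjusted p = 0.0358 for both). Gm49273 was at 101.9, 113.1, 102.8 and 103.5 CPM in C1 and at 61.9, 63.2, 66.8 and 77.1 in C2/C3. Gm14391 and the unprocessed pseudogene Gm17132, named after their values were seen, had changes of 0.39 ± 0.06 and 0.57 ± 0.09 (edgeR, adjusted p = 0.0486 for both). Reads of a pseudogene can come from the gene it copies, so these counts are uncertain.

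**Figure D2:**
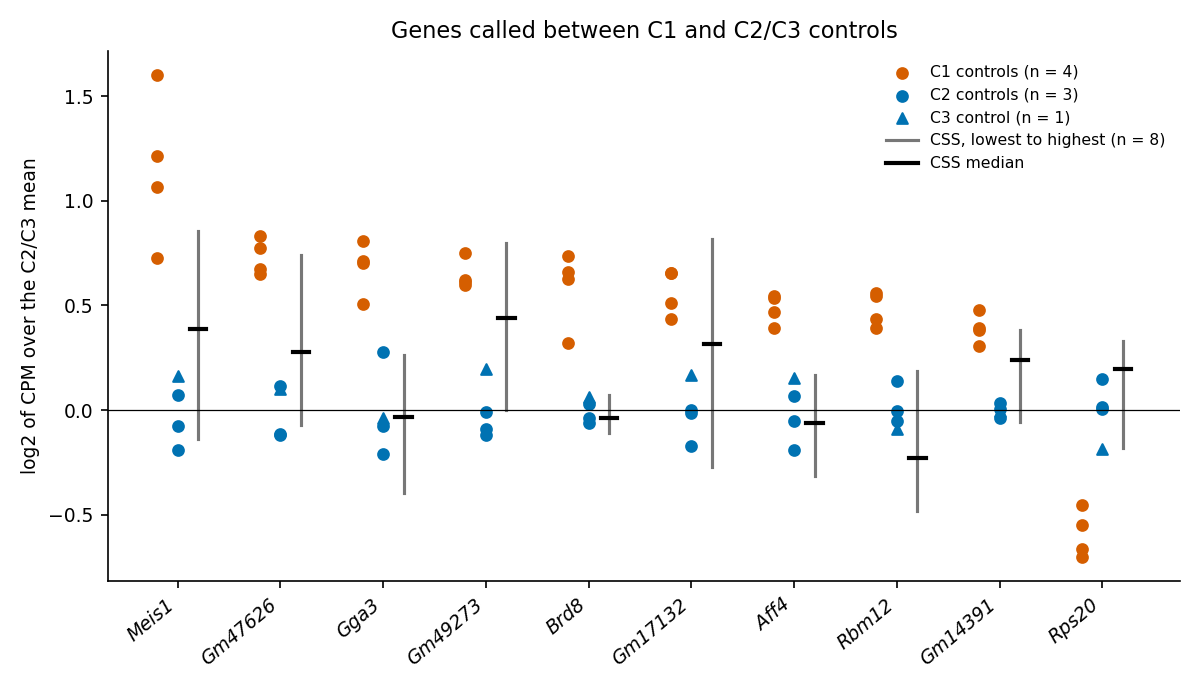
For 10 of the 11 genes called between the control sets, the vertical axis gives log2 of a library's CPM over the mean of the 4 C2/C3 libraries. Points are single control libraries (orange C1, blue circles C2, blue triangle C3), grey lines run from the lowest to the highest of 8 CSS libraries, and black bars mark the CSS median. No orange point overlaps the blue ones, and Rps20 is the 1 gene with C1 below.

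Against these 11 genes the stressed mice were set as a further group. The genes were chosen on the controls, and the positions are a description. The mean of the stressed mice was nearer to C2/C3 than to C1 in 7 of the 11. Their median lay within the C2/C3 range in 3 genes, within the C1 range in 0, and outside both in 8. The single C3 library lay inside the range of the 3 C2 libraries in 3 of the 11.

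Among genes that missed the threshold, the smallest p-values on the higher side belonged to Malat1, Kdm2a, Eif4g2 and Hif3a. Malat1, a long noncoding RNA of nuclear speckles and among the most abundant RNAs, was at 23697, 26063, 21515 and 22295 CPM in C1 and at 16912, 12666, 14967 and 16614 in C2/C3. The sets did not overlap, and its log2 value was 0.61 ± 0.10 (edgeR, adjusted p = 0.0548). Kdm2a, a histone demethylase, had 0.35 ± 0.06 (adjusted p = 0.0548), and Eif4g2, a translation initiation factor, 0.47 ± 0.08 (adjusted p = 0.0621). Hif3a, of the hypoxia-inducible factor family, was low, at 3.36 to 6.73 CPM in C1 and 1.21 to 2.50 CPM in C2/C3, with 1.57 ± 0.26 (edgeR, adjusted p = 0.0621).

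On the lower side, 9 genes filled the places left by the rule after Rps20, and none of them was called. Atp5e, the epsilon subunit of mitochondrial ATP synthase, was at 22.9, 22.1, 28.8 and 26.9 CPM in C1 and at 37.9, 38.9, 38.5 and 35.7 in C2/C3. The sets were apart, with a log2 value of -0.59 ± 0.09 (edgeR, adjusted p = 0.0549). Atp6v0b of the vacuolar proton pump (-0.34), Map1lc3a of the autophagosome membrane (-0.38) and Chmp1a of the membrane-remodelling machinery ESCRT-III (-0.37) all had an adjusted p of 0.0658 in edgeR. Psmb5, a catalytic subunit of the proteasome, had -0.40 ± 0.07, and Metrn, a secreted neurotrophic protein, -0.52 ± 0.10, with edgeR adjusted p-values of 0.0660 and 0.0771. Of the exonic bases of Metrn, 48.4% overlap an antisense model. Tmem59l, Actr10 and Rnf182 were the others, with values of -0.35, -0.36 and -1.08 (edgeR, adjusted p of 0.0595, 0.0658 and 0.0658).

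Gene lists were compared by how many members passed an unadjusted p of 0.05 in each direction, since only Rps20 among all list members passed the adjusted threshold. Over all genes, 1349 (8.94%) were higher in C1 and 1262 (8.36%) lower at that level, which is the background for each count below. That background itself changed with the GC content and length of the transcript, as given further below, and the lists were not matched for either. The lists were not tested as sets, and single members below are given as values unless a call is stated.

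Among markers of neighbouring brain regions, those of the striatum had higher values in C1, with 8 of 20 past the unadjusted threshold, 0 of 20 lower and a median log2 value of 0.39. Meis2, a homeobox gene of striatal projection neurons, was at 315, 317, 267 and 365 CPM in C1 and at 226, 220, 238 and 189 in C2/C3, a log2 value of 0.53 ± 0.10 (edgeR, adjusted p = 0.0727). Pde10a, the phosphodiesterase of medium spiny neurons, was at 638, 865, 527 and 574 CPM in C1 and at 379, 351, 574 and 425 in C2/C3. C2A4 matched C1A4, so the sets overlapped (log2 value 0.59 ± 0.18, edgeR, adjusted p = 0.166). Penk, which encodes enkephalin, was likewise highest in C1A2 (373 CPM) and C1A1 (361 CPM), with C2A4 at 303 CPM and the other C2/C3 libraries at 164 to 183 CPM. Drd2 (0.52 ± 0.22) and Ppp1r1b (0.34 ± 0.20) also overlapped between the sets (edgeR, adjusted p of 0.273 and 0.427). Of the 20 markers 18 had a positive value and 2 a negative one. Meis2 was the 1 marker of 20 without overlap, no more than the 5.0% of all genes that were higher in C1 without overlap. Unlike Pde10a and Penk, Meis2 was highest in C1A4. A striatal score, the mean log2 CPM of the 20 genes relative to the 8 controls, was 0.30, 0.43, -0.05 and 0.11 in C1 and -0.35, -0.43, 0.28 and -0.29 in C2/C3. With this score as a covariate, 0 genes were called between the control sets by edgeR (smallest adjusted p 0.412) and 1470 had an unadjusted p under 0.05. All 11 genes kept their direction in that fit, with log2 changes of 82.8% to 114% of their size without the score (Meis1 1.18, Brd8 0.53 and Rps20 -0.53). Their median standard error was 0.11 with the score and 0.084 without it.

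Markers of the olfactory bulb had a median of 1.07, and 2 of 9 passed the unadjusted threshold, both higher in C1. These were Trh (1.79 ± 0.61) and Dlx6 (0.35 ± 0.16), neither of them called (edgeR, adjusted p of 0.194 and 0.274). Trh was at 10.9, 1.61, 6.24 and 11.7 CPM in C1 and at 1.44, 1.04, 3.35 and 2.75 in C2/C3, so C1A4 was not alone. The library C1A4 had the highest level of each gene named here. Doc2g was at 29.6 CPM in C1A4, at 1.31 to 6.45 CPM in the other C1 libraries and at 2.20 to 3.58 CPM in C2/C3. Cdhr1, a cadherin of mitral and tufted cells, was at 39.3 CPM in C1A4 and at 1.61 to 11.1 CPM in the other 7 controls, and Th, the enzyme of dopamine synthesis, at 19.9 CPM against 1.95 to 5.25 CPM. C1A2 was the lowest of all controls in the olfactory score (-1.02), and C1A4 the highest (1.81). Doc2g, Cdhr1 and Th were named after their values were seen and did not pass the unadjusted threshold (edgeR, adjusted p of 0.362, 0.579 and 0.460). Thalamic and hypothalamic genes (0 of 7 in either direction) and hippocampal and claustral genes (0 of 8 higher, 1 of 8 lower) passed in few cases.

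Of the cell types of cortex itself, most lists were near the background. Excitatory neuron markers passed in 2 of 20 higher and 2 of 20 lower, inhibitory neuron markers in 1 and 1 of 21, oligodendrocyte markers in 0 and 2 of 20, and those of their precursors in 0 of 14 in either direction. Astrocyte markers passed in 1 of 18 higher and 3 of 18 lower. Slc17a7, at 372, 556, 467 and 492 CPM in C1 and 578, 713, 600 and 571 in C2/C3, had a log2 value of -0.38 ± 0.11 (edgeR, adjusted p = 0.142) with no overlap between sets. It does not stand for its list, in which 10 of 20 values were positive and 10 negative (median 0.02). Of these 20 genes, 1 was higher and 1 lower without overlap, beside 5.0% and 5.51% of all genes. Microglial markers passed in 0 higher and 3 of 20 lower, with a median of -0.05, and Tyrobp, a signalling adaptor of microglial receptors, had -0.43 ± 0.13 (edgeR, adjusted p = 0.141).

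Most blood and endothelial genes had lower values in C1. Of 7 erythroid and other blood cell genes measured, 5 passed the unadjusted threshold lower and 0 higher, with a median of -0.46. The globin Hba-a1 was at 21.6, 29.4, 33.8 and 33.9 CPM in C1 and at 37.7, 47.0, 43.3 and 33.9 in C2/C3, C1A4 and C3A4 being nearly equal (log2 value -0.45 ± 0.15, edgeR, adjusted p = 0.165). The globins and Alas2 share one source, red cells, and are not independent. Endothelial markers passed in 5 of 20 lower and 0 higher (median -0.13), and 18 of the 20 had a negative value. Pericyte and smooth muscle genes lay on the other side, with 11 of 15 positive and a median of 0.19, though 1 passed higher and 0 lower. Meningeal fibroblast genes passed in 0 of 18, but their score ranged from -0.54 in C1A1 to 0.56 in C1A3, a wider span than in C2/C3 (-0.08 to 0.15).

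Most genes of neuronal activity had lower values in C1. Of 27 immediate early and activity-dependent genes, 6 passed the unadjusted threshold lower and 0 higher, 25 had a negative value, and the median was -0.23. Bdnf, the neurotrophin induced by activity, was at 16.3, 19.1, 18.9 and 16.5 CPM in C1 and at 28.9, 29.6, 22.5 and 22.9 in C2/C3. The sets were apart, with a log2 value of -0.55 ± 0.11 (edgeR, adjusted p = 0.0823), and 14.4% of the exonic bases of Bdnf overlap an antisense model. Fos was at 12.5, 16.5, 10.2 and 23.6 CPM in C1 and at 27.6, 18.3, 22.6 and 19.2 in C2/C3, where C1A4 was above all but the highest library of the other set (log2 value -0.48 ± 0.23, edgeR, adjusted p = 0.322). The score of the list was lowest in C1A3 (-0.35) and C1A1 (-0.30), while C1A2 (0.06) and C1A4 (0.10) lay within the C2/C3 range of -0.02 to 0.26. Bdnf, in contrast, was low in all 4 C1 libraries.

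Few genes that follow the time of day or corticosterone passed the unadjusted threshold. In the circadian clock list 1 of 22 passed higher and 0 lower, with a median of 0.03. The 1 gene was Bhlhe41, a clock-linked repressor, at 0.47 ± 0.11 (edgeR, adjusted p = 0.0959). Of 20 glucocorticoid targets, 1 passed higher and 1 lower. Per2 of the clock was at 26.2 to 33.6 CPM in C1 and at 27.1 to 30.9 CPM in C2/C3, a log2 value of -0.03 ± 0.09 (edgeR, adjusted p = 0.907). A p that misses the threshold does not show that such values were equal.

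Genes of cholesterol synthesis had lower values, with 11 of 22 past the unadjusted threshold lower in C1, 0 higher, 21 negative and a median of -0.19. The pathway makes membrane sterol from acetyl-CoA and is set by the transcription factor SREBP. Stard4, which carries cholesterol between membranes, was at 17.2, 18.2, 17.7 and 16.5 CPM in C1 and at 21.1, 25.0, 24.4 and 23.2 in C2/C3. The sets were apart, with a log2 value of -0.43 ± 0.08 (edgeR, adjusted p = 0.0821). The score of the list was negative in all 4 C1 libraries (-0.12 to -0.03) and positive in all 4 others (0.01 to 0.16).

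Many genes of RNA splicing and of chromatin had higher values in C1. In the list of spliceosome and hnRNP genes 13 of 29 passed the unadjusted threshold higher and 2 lower, with a median of 0.13. Luc7l3, a splicing factor, was at 292, 272, 246 and 257 CPM in C1 and at 229, 188, 184.1 and 215 in C2/C3 (log2 value 0.39 ± 0.08, edgeR, adjusted p = 0.0823). Ddx5, an RNA helicase, had 0.37 ± 0.09 (edgeR, adjusted p = 0.0909). Ncl, the nucleolar protein nucleolin, was at 218 to 233 CPM in C1 and at 189 to 196 CPM in C2/C3, narrow within each set and apart (0.23 ± 0.05, edgeR, adjusted p = 0.0857). Of 33 chromatin enzymes, 11 passed higher and 1 lower, with a median of 0.13, among them the histone methyltransferase Kmt2a (0.49 ± 0.10, edgeR, adjusted p = 0.0823) and the DNA dioxygenase Tet2 (0.32 ± 0.08, edgeR, adjusted p = 0.104).

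Genes for respiration, protein supply and folding were spread unevenly over the libraries. Of 78 nuclear genes of the respiratory chain, 29 passed the unadjusted threshold lower and 5 higher, with a median of -0.11. Their score was 0.17 in C2A2, 0.04 in C2A3 and 0.03 in C2A4, while C3A4 (-0.05) lay within the C1 range of -0.09 to -0.01. Of 82 cytosolic ribosomal proteins, 22 passed lower and 8 higher (median -0.04), Rps20 alone being called. Here too C2A2 had the highest score (0.17), and C3A4 had the lowest of all controls (-0.09). Of 78 mitochondrial ribosomal proteins, 8 passed lower, near the background, and 3 higher, with C2A2 at 0.13 and C3A4 at -0.07. Of 36 proteasome subunits, 7 passed lower and 1 higher. Of 28 heat shock and unfolded protein response genes, 7 passed lower and 1 higher (median -0.10). Hspa1b, the inducible HSP70 chaperone, was at 5.37, 4.92, 5.39 and 5.80 CPM in C1 and at 7.70, 7.09, 8.17 and 8.50 in C2/C3 (log2 value -0.55 ± 0.13, edgeR, adjusted p = 0.0899), and it has a near-identical neighbour that can take its reads.

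Transcripts of mitochondrial DNA, which are made as joint precursors, had values on both sides. Of 13 genes, 6 passed the unadjusted threshold higher in C1 and 3 lower, and their median was 0.24. Subunits of complex I were on both sides. The gene mt-Nd5 was at 425, 527, 480 and 509 CPM in C1 and at 360, 313, 413 and 363 in C2/C3 (log2 value 0.42 ± 0.09, edgeR, adjusted p = 0.0823). In contrast mt-Nd3 was at 331, 248, 379 and 343 CPM in C1 and at 576, 788, 696 and 402 in C2/C3 (-0.92 ± 0.21, edgeR, adjusted p = 0.104). For mt-Atp6 of ATP synthase the log2 value was -0.56 ± 0.13 (edgeR, adjusted p = 0.0934), and C3A4 (295 CPM) lay inside the C1 range. The gene mt-Nd3 was named after its values were seen.

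Transcript composition was examined over all genes. With the genes in 5 bins by GC content of the longest transcript, the median log2 value was 0.05, 0.03, 0.00, -0.03 and -0.04 from the lowest to the highest GC. With 5 bins by transcript length it went from -0.03 for the shortest to 0.04 for the longest. The counts at an unadjusted p under 0.05 in edgeR moved more. Of 3011 genes in the lowest GC bin, 443 were higher in C1 and 163 lower, beside 130 and 352 of 3011 in the highest. Of the longest transcripts, 407 of 3011 were higher and 149 lower, beside 204 and 335 of 3011 for the shortest. Bins by gene body length went the same way (418 and 125 for the longest, 211 and 338 for the shortest). The slope of log2 level on GC was lower in C1 by -0.06 per 10 percentage points, with an exact permutation p of 0.0571 (adjusted 0.3), and C1A2 alone of C1 had a positive slope. With both trends removed from each library, an alternative added after the data were seen, edgeR called 3 genes between the control sets. The part of these trends in the list values was not tested.

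**Figure D3:**
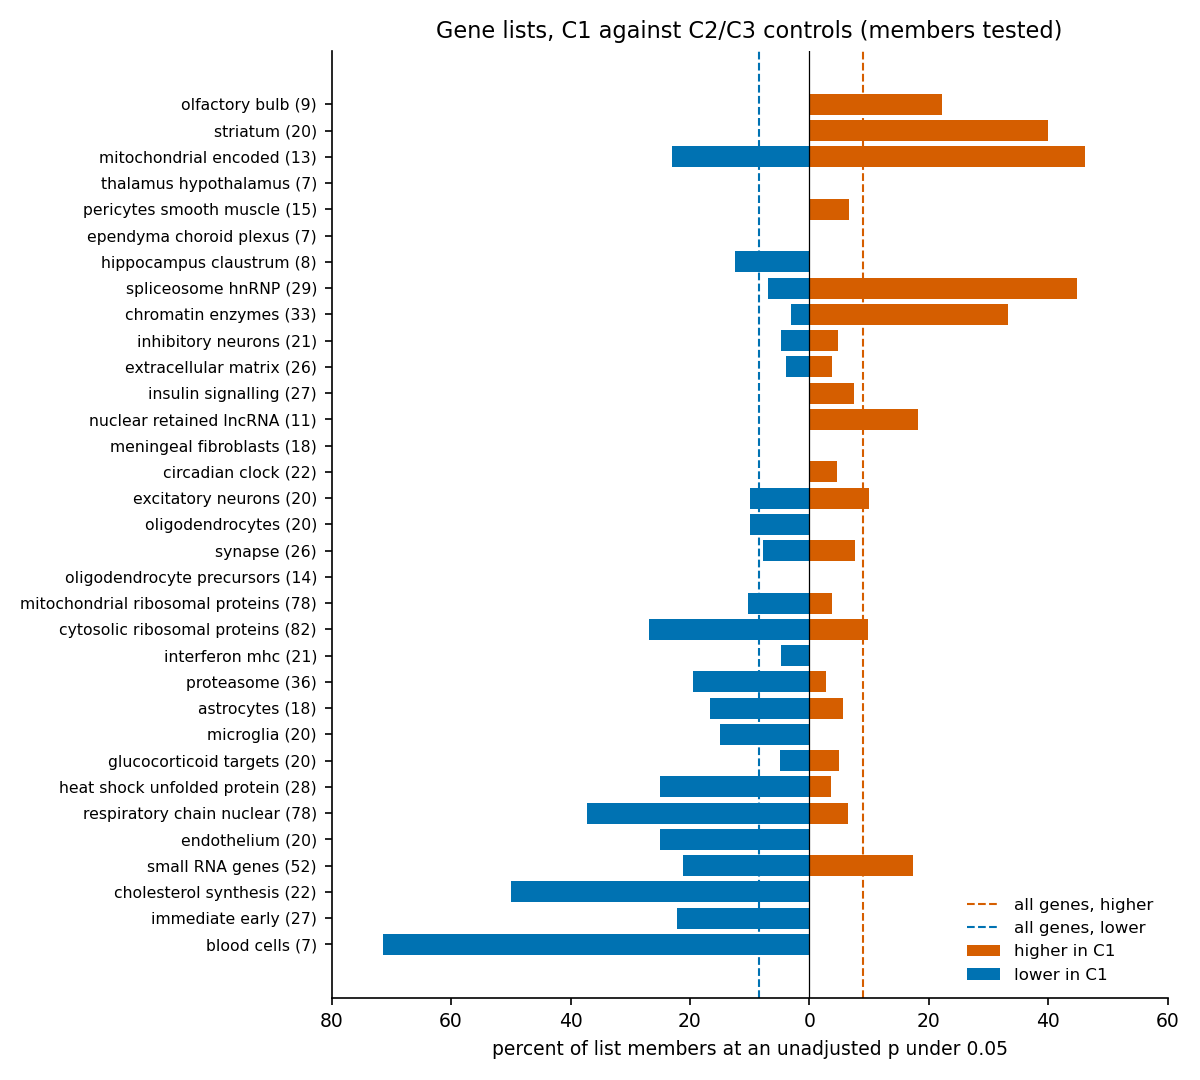
For each gene list (number of members tested in parentheses), bars to the right give the percent of members higher in C1 and bars to the left the percent lower, at an unadjusted p under 0.05. Lists are ordered by their median log2 value, highest at the top. Dashed lines mark the background over all genes, 8.94% higher and 8.36% lower. Blood, cholesterol and respiratory chain genes extend to the left, and splicing, striatal and chromatin genes to the right. Genes of mitochondrial DNA extend far to the right (6 of 13) and also to the left (3 of 13).

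**Figure D4:**
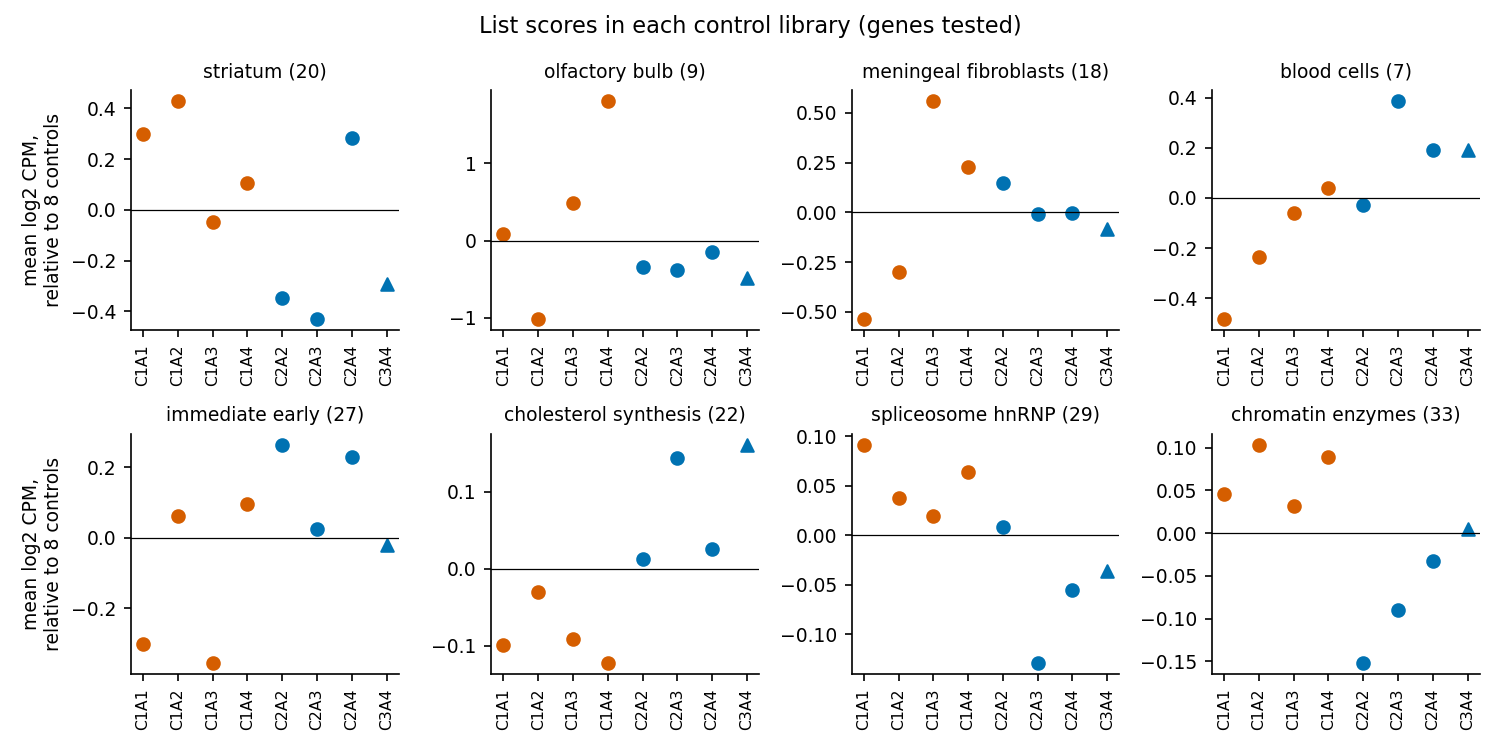
Scores of 8 lists in each control library, where the vertical axis is the mean log2 CPM of the members relative to the mean of the 8 controls, on a scale of its own in each panel. C1 libraries are orange, C2 blue circles and C3 a blue triangle. Cholesterol, splicing and chromatin scores separate the sets. The olfactory bulb panel is led by C1A4 (1.81), and the striatal one has C2A4 (0.28) among C1 values.

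Of the remaining lists, insulin signalling passed in 2 of 27 higher and 0 lower, synaptic genes in 2 and 2 of 26, interferon and MHC genes in 0 and 1 of 21, and extracellular matrix genes in 1 and 1 of 26. Genes of ependyma and choroid plexus passed in 0 of 7 in either direction. Nuclear long noncoding RNAs passed in 2 of 11 higher and 0 lower. Small RNA genes, whose yield depends on the RNA preparation, passed in 9 higher and 11 lower of 52, above the background in both directions, with a median of -0.15. Grin2b, an NMDA receptor subunit in the synaptic list, was at 1275 to 1343 CPM in C1 and at 1046 to 1132 CPM in C2/C3, a log2 value of 0.26 ± 0.05 (edgeR, adjusted p = 0.0823). A set of 30 genes of stress, activity, clock, cell type and RNA quality was fixed for reporting. Many of them are members of the lists above or were described already, so they are no separate evidence. Of the 30, 29 were measured, 0 were called, and 5 were higher and 3 lower at an unadjusted p under 0.05.

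The second comparison set the 8 stressed mice against each set of controls, in 1 edgeR fit of 16 libraries with 3 groups. Both contrasts share the stressed libraries, have 4 controls each and had a median standard error of 0.106. Against C1, 1387 of 15097 genes were called (9.19%), of which 631 were higher in CSS (4.18%) and 756 lower (5.01%). Against C2/C3, 0 genes were called (0.0%), with a smallest adjusted p of 0.158. The unadjusted p was under 0.05 in 3886 genes against C1 and in 2116 against C2/C3. DESeq2 called 2021 and 196 genes, and limma's voom called 1557 and 0. Whether a gene's 2 stress differences differ from each other is the C1 against C2/C3 contrast of this same fit, which called 1 gene, Brd8.

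The median size of the log2 difference over all genes was 0.14 against C1 and 0.10 against C2/C3. The calls against C1 were mostly small, with a median fold of 1.27 and 196 of 1387 above 1.5-fold. Leaving out C1A1 left 596 calls and leaving out C1A2 left 747, while every other library left out gave a count within 1.5 times of 1387. With the striatal score as a covariate, 120 genes were called against C1 (35 higher and 85 lower) and 0 against C2/C3. All 1387 genes kept their direction with it, with a median log2 size of 0.31 beside 0.34 and a median standard error of 0.0985 beside 0.0795. Without C3A4, 1 gene was called against the 3 C2 libraries.

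Of the 11 genes that differed between control sets, 7 were called in CSS against C1 and 0 against C2/C3. These genes were chosen on the same C1 libraries, and that choice favours a call against C1, so the count is a description and no separate evidence. Brd8 fell by 0.62 on the log2 scale against C1 (edgeR, adjusted p = 0.000108), while against C2/C3 the value was -0.03 (adjusted p = 0.887). Gga3 fell by 0.69 against C1 (edgeR, adjusted p = 0.00165) beside -0.01 against C2/C3 (adjusted p = 0.985). Rps20 rose by 0.73 against C1 (edgeR, adjusted p = 0.000291) beside 0.14 (adjusted p = 0.528). Gm49273 was called in neither, at -0.22 against C1 and 0.43 against C2/C3 (edgeR, adjusted p of 0.195 and 0.158).

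For some lists the difference from CSS was larger against C1 than against C2/C3. The background for each count called against C1 is 4.18% of all genes higher in CSS and 5.01% lower. The lists were not tested against it, and many of the counts are only a few genes. For the striatum the median log2 difference was -0.42 in CSS against C1, with 0 of 20 genes called higher and 4 lower, and -0.02 against C2/C3. Meis2 fell by 0.57 against C1 (edgeR, adjusted p = 0.000743) and was at -0.04 against C2/C3 (adjusted p = 0.871). For immediate early genes the medians were 0.42 and 0.06, with 3 of 27 called higher against C1, among them Bdnf (0.57, edgeR, adjusted p = 0.0131, beside 0.02 against C2/C3). Endothelial genes had medians of 0.25 and 0.04, with 3 of 20 called higher against C1. Splicing genes had medians of -0.14 and -0.03, with 1 of 29 called higher and 9 lower against C1. Blood genes had 0.97 and 0.52, with 2 of 7 called higher against C1. The globins and Alas2 are not independent, and the stressed C4A1 library stood far above the other stressed libraries. It had Hba-a1 at 114 CPM against 27.3 to 64.4 CPM, and Alas2 at 12 CPM against 2.32 to 6.05 CPM.

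For some other lists the medians had the same direction against both sets of controls, though not always the same size. The background for counts called against C1 is again 4.18% of all genes higher and 5.01% lower. Microglial markers had medians of -0.32 against C1 (0 of 20 called higher, 3 lower) and -0.35 against C2/C3. Meningeal fibroblast genes had 0.39 (2 of 18 called higher) and 0.48, extracellular matrix genes 0.24 (2 of 26 called higher) and 0.23, and small RNA genes 0.47 (22 of 52 called higher and 4 lower) and 0.35. Per2 rose by 0.83 against C1 (edgeR, adjusted p = 0.0161), and its value against C2/C3 was 0.80 (adjusted p = 0.158), as large but not called. Ncl was less alike, falling by 0.57 against C1 (edgeR, adjusted p = 0.000229) and at -0.34 against C2/C3 (adjusted p = 0.158). For mitochondrial DNA the medians lay further apart, at -0.54 (3 of 13 called higher, 8 lower) and -0.21. Medians of opposite sign included those of chromatin enzymes (-0.05, with 4 of 33 called higher and 2 lower against C1, and 0.18) and the olfactory bulb (-0.88 and 0.33, with 0 of 9 called in either contrast). None of these paired medians was tested for a difference. For a single gene, the gap between its paired values restates its C1 against C2/C3 difference and is no further result. For a list, the gap between its paired medians likewise largely restates its C1 against C2/C3 difference, and is no further result about stress.

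**Figure D5:**
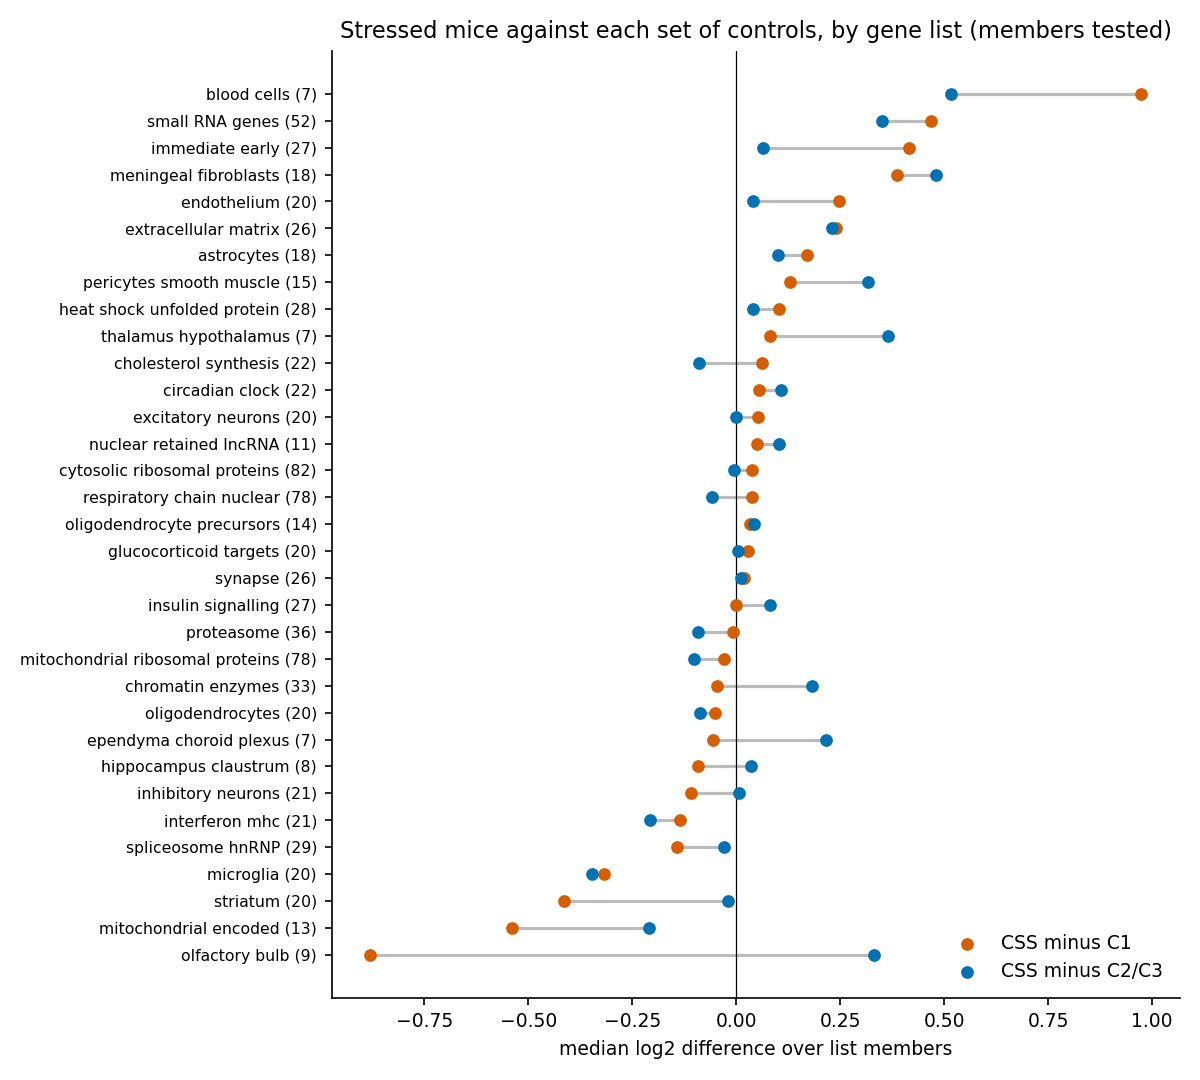
Median log2 difference over the members of each gene list between 8 CSS libraries and the 4 C1 controls (orange) or the 4 C2/C3 controls (blue), joined by a grey line. The points lie close together for microglial (-0.32 and -0.35) and extracellular matrix genes (0.24 and 0.23), and far apart for striatal (-0.42 and -0.02) and immediate early genes (0.42 and 0.06). Both contrasts share the CSS libraries, so the gap between the points of a list largely restates its C1 against C2/C3 difference.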

How the data were processed

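Members and gene lists were chosen with earlier results of these data known. The deposited values were estimated counts for each gene in 16 libraries, rounded here to whole numbers. Per the submitters' processing notes, Salmon 1.1.0 and the build mm10 were used. For the step from transcripts to genes, length scaling, strand use and the filter on low genes, details were not given in the sources used here. Per the labels' protocols, extraction used a Maxwell RSC, and TruSeq Stranded Total RNA libraries followed Ribo-Zero Gold depletion.

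Of 15097 genes, filterByExpr kept 15094 for the 8 controls. Tests used edgeR 4.0.16 (TMM scaling, robust quasi-likelihood, Benjamini-Hochberg over all genes, threshold 0.05) in R 4.3.3, and every adjusted p of a gene is from it unless another tool is named. DESeq2 1.42.0 and limma 3.58.1 were alternatives. CSS contrasts came from 1 fit of 3 groups over 16 libraries. Library values were compared by two-sided exact permutation tests. Coordinates, overlaps, lengths and GC came from GENCODE M21 (GRCm38), in which 15065 identifiers were found. In simulated counts for C1 against C2/C3 (15089 genes), 61% of 100 genes changed by 1.5-fold and 86% of 100 changed by 2-fold were recovered, with 7 false calls. The Benjamini-Hochberg cutoff is looser when many genes change, and far fewer genes were called in the real comparison than were recovered here. These rates therefore describe the simulated counts only, and recovery and false calls in the real comparison were not tested. The depth of 14.3 to 37.5 M limits precision at low levels.

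Named genes were the 10 largest changes in each direction among called genes (predicted models left out, mean log2 CPM 1 or more), filled up by smallest unadjusted p, the 5 smallest p-values, the 2 members of smallest p of each of 33 lists, and 30 set genes, and members of summarised lists could be left out. Of the 11 called genes 1, and some other named genes, are not reported here. Promoter motifs were planned for called members of lists with a known motif, and no called gene was one. Alternatives changed the scaling, filter, tool, covariates, samples and depth.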

Additional observations from a re-analysis of the deposited data

Results flagged for a closer look

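In groups of 4 to 8 libraries, 13 of 161 sets of values had 1 library far from the rest of its group. Chance alone marks about 5% of such groups. Among the controls, the share of counts from small RNA genes was 3.34% in C1A3 against 2.52% to 2.60% in the other C1 libraries, and 3.27% in C3A4 against 2.26% to 2.42% in C2. Penk was at 302.6 CPM in C2A4 against 164 to 183 CPM in the other C2/C3 libraries. Tyrobp was at 8.31 CPM in C3A4 against 10.1 to 10.3 CPM. Gm49273 was at 113 CPM in C1A2, Tmem59l at 139 CPM in C2A3 and Map1lc3a at 53.2 CPM in C1A4, each the highest of its set.

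The other marked values were in single stressed libraries. Atp6v0b was at 93.2 CPM in the library titled C3A4 of the stressed mice against 117 to 130 CPM in the other 7. Ddx5 was at 883 CPM in the stressed C1A1 library. Hba-a1 (114 CPM) and Alas2 (12 CPM) were highest in the stressed C4A1 library, and Doc2g (8.61 CPM) and Th (8.49 CPM) in the stressed C3A3 library.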

How the results depend on the processing

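Between the control sets, 11 genes were called, and 697 with DESeq2, 7 with the olfactory bulb score as a covariate (added after the data were seen), 4 with RIN as a covariate, 3 with length and GC trends removed (likewise added), 2 with the non-robust test, 1 in the 3-group fit and 0 with the striatal score, while leaving out single libraries gave 0 to 19. With the striatal score all 11 genes kept their direction and 82.8% to 114% of their log2 size. Other scalings, filters, thinned counts and voom stayed within 1.5 times. For CSS against C1 (1387 calls) the striatal score left 120, and leaving out single libraries gave 596 to 1502. For CSS against C2/C3 (0 calls) DESeq2 gave 196, removing the trends 1, and leaving out single libraries 0 to 1.

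C1 and C2/C3 share no replicate number, so no paired analysis was possible between them. With the replicate number as a block, 326 genes were called in CSS against C1 and 11 against C2/C3. The numbers pair no animals in the labels, and same-numbered libraries correlated at -0.14 to 0.39, with 2 of 8 pairs over 0.1 and 1 of 8 correlating best with its own number.

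Leaving out single libraries, the difference between the sets lay between -1.95 and 5.79 M for the total, -0.19 and 0.0417 for RIN, -0.10 and 0.57 percentage points for the mitochondrial share (-0.08 without C2A3), 0.0054 and 0.433 points for small RNA, 0.768 and 1.56 points for the 10 largest genes, 0.0078 and 0.0237 for the length slope, and -0.0754 and -0.048 for the GC slope. Sign changes among named genes were Doc2g (-0.091), Th (-0.19) and Cdhr1 (-0.76) with the olfactory score, Drd1 with the striatal score (-0.20), Cdhr1 without C1A4 (-0.13, the lowest of -0.13 to 1.69 over left-out libraries), and Per2 without C1A1, C1A3 or C2A3 (-0.11 to 0.010 over left-out libraries). A score is a mean over the members of its list, so as a covariate it takes up part of a member's own change by construction.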
